A study of Mus musculus with 18 samples.

Results

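The resting expression profile of the striatum was taken from 3 control mice injected with saline, numbered 10, 4 and 8 in the sample titles, out of 18 mice in the series. These 3 arrays were chosen by their titles alone (wt.sal), with no measured value used. The series set control (wt) littermates against mutants with altered CaMKIV, a calcium and calmodulin dependent kinase encoded by Camk4. Mice received saline or cocaine (25 mg/kg) and were killed 1 hour later. The series held 3 control and 3 mutant mice given saline and 6 of each given cocaine, 1 Affymetrix array per mouse. The titles number part of the cocaine mice with Roman numerals and all other mice with Arabic ones. All mice were littermates of 10 to 20 weeks, kept 1 to a cage and handled before the injection, and the tissue was the striatum with the nucleus accumbens. The nature of the Camk4 mutation, the cells it acts in and any allele carried by the controls are not stated in the sources used here. The description line of these 3 samples names mutant animals and cocaine where the title names control animals and saline, so the group rests on the titles.

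The striatum is the input station of the basal ganglia. Most of its neurons are GABAergic medium spiny neurons, which receive glutamate from cortex and thalamus and dopamine from the midbrain. Those of the direct pathway carry the D1 dopamine receptor and make the tachykinin substance P and dynorphin, and those of the indirect pathway carry the D2 receptor and make enkephalin. Both kinds hold DARPP-32 (Ppp1r1b), a phosphoprotein through which dopamine and cAMP control protein phosphatase 1. Calcium entry and cAMP also reach the nucleus through CREB, a transcription factor that CaMKIV can phosphorylate and that binds the cAMP response element in promoters of neuropeptide and immediate early genes.

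The start regions of 3 genes that recur below are shown because they carry the core of that element, CGTCA on one strand and TGACG on the other. Each run is the 250 bases before the RefSeq transcript start (GRCm38.p6, plus strand), 5′ to 3′, with every CGTCA or TGACG in capitals. The Tac1 window lies at chr6:7554811-7555060, the Fos window at chr12:85473640-85473889 and the Nr4a1 window at chr15:101266596-101266845.
Tac1: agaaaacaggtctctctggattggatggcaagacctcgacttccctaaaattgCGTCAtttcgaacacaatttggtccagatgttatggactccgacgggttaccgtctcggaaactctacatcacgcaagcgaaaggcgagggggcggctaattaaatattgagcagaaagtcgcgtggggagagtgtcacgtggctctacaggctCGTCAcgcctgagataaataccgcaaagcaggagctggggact
Fos: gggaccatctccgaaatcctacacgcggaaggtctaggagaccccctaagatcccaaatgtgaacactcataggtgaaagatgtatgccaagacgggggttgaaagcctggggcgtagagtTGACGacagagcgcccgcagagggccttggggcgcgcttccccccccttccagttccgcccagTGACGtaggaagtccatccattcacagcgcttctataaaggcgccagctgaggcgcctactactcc
Nr4a1: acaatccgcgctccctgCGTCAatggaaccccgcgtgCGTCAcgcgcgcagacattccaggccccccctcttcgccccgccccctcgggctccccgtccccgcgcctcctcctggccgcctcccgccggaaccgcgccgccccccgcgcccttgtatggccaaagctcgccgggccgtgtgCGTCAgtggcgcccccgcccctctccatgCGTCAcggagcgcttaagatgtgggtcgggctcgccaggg

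The Tac1 window held 2 matches, which begin 197 and 43 bases before the start. Fos also held 2, at 129 and 66 bases, and Nr4a1 held 4, at 233, 213, 69 and 40 bases. Of all 32851 RefSeq windows of this length, 17.8% held at least 1 match, and so did 19.8% of the 27025 genes with a window. Among the activity-regulated genes described below, 19 of the 26 that matched the RefSeq promoter table held one. A match describes letters in a window and is not a binding site.

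Levels are log2 values after GCRMA, an array method that models background from probe sequence and equalises the arrays. Each gene stood as its brightest probe set over the 3 animals. Because probe sets differ in how well they bind, the order of genes below is an order of array signal and not of transcript numbers. The table named 12393 genes. Their levels fell into a narrow peak near 2, where the method places probe sets with no signal over background, and a broad peak near 8. A level above 4 in every one of the 3 arrays was called above background. This held for 7387 genes (59.6%), while 4850 genes did not exceed 4 in any array and 156 did so in 1 or 2. The counts of list members above background given below stand beside this share of 59.6%. The median level was 6.20 over all genes and 8.33 over those above background. Only 1647 genes had a mean above 10, 396 above 12 and 25 above 14. In this bulk tissue, more cells of a type and more RNA per cell cannot be told apart.

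Of the 20 brightest genes, several encode the machinery that all cells use. Rps29, a protein of the small ribosomal subunit, was brightest at 14.93, 14.95 and 14.91 in animals 10, 4 and 8. ND5, a mitochondrially encoded subunit of respiratory complex I, read 14.70, 14.68 and 14.63. Ribosomal protein genes made up 15 of the brightest 100 genes and had a median level of 12.95 over 41 genes. Genes named for the respiratory chain and the ATP synthase, ND5 among them, made up another 13, with a median of 12.19 over 77 genes. Rpl13a, Rpl37a, Rplp2 and Rps28, the elongation factor Eef1a1, the ferritin heavy chain Fth1, the cytochrome oxidase subunit Cox6a1 and malate dehydrogenase Mdh1 were also among the 20, at 14.09 to 14.39.

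The same 20 held genes typical of brain cells. Pcp4, a small calmodulin-binding protein, was at 14.76 ± 0.03 (mean ± SD, n = 3 animals, as for all levels below). Mbp, the myelin basic protein of oligodendrocytes, was at 14.57 ± 0.06, and Clu, the secreted chaperone clusterin that astrocytes make, at 14.47 ± 0.08. Snap25, part of the complex that fuses synaptic vesicles, was at 14.21 ± 0.06 and Cpe, which trims neuropeptide precursors, at 14.08 ± 0.03. The ranks within these 20 were loose. In only 2 of the 19 neighbouring pairs were all 3 animals of the one gene above all 3 of the other, and 17 of the 20 genes were in the brightest 20 of every animal.

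The 5 markers of striatal spiny neurons were all well above background. Arpp21, a cAMP-regulated phosphoprotein, read 14.13, 14.11 and 14.18 in animals 10, 4 and 8 and ranked 16 among 12393 genes. Penk, the enkephalin precursor of indirect pathway neurons, read 13.91, 13.90 and 13.89 and ranked 36. Ppp1r1b read 13.38, 13.34 and 13.34 and ranked 90. Tac1, the substance P precursor of direct pathway neurons, read 13.29, 13.26 and 13.39 and ranked 94. Drd2, the D2 receptor, read 11.55, 11.75 and 11.58 and ranked 553. The animals' values of Ppp1r1b and Tac1 overlapped, and all other neighbours in this order were separated in all 3 animals.

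The wider list of genes shared by both kinds of spiny neuron had 19 named genes, of which 18 were above background, with a median level of 12.07. The calcium sensor Hpca was at 13.93 ± 0.03, the calmodulin-dependent phosphodiesterase Pde1b at 13.35 ± 0.06, the small GTPase Rasd2 (Rhes) at 12.85 ± 0.06 and the transcription factor Bcl11b (Ctip2) at 12.48 ± 0.08. Foxp1, another transcription factor, was at 11.17 ± 0.18, and Rgs14 was the dimmest of the 18 at 9.54 ± 0.07. Ppp1r16b was near the floor at 2.36.

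Among other genes of the direct pathway, Pdyn, the dynorphin precursor, read 8.41, 8.45 and 8.79, and the transcription factor Isl1 8.13, 8.32 and 8.51. Of the 6 named genes of this list 4 were above background. Among these 4, Tac1, Pdyn and Isl1 were highest in animal 8, as were 42.6% of all genes above background. Sfxn1, the remaining gene, was highest in animal 4 at 10.776, 10.865 and 10.794. The muscarinic receptor gene Chrm4 was at 1.98, at the floor of the scale in all 3 animals. The probe sets named here include none for Drd1 or Adora2a, so the D1 dopamine receptor and the adenosine receptor of indirect pathway neurons are not analysed here.

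Genes of dopamine and cAMP signalling had a median of 11.54, with 21 of 24 above background. The stimulatory G protein subunit Gnas was at 13.25 ± 0.14, the protein kinase A regulatory subunit Prkar1b at 13.18 ± 0.12 and its catalytic subunit Prkacb at 12.30 ± 0.06. The phosphatase catalytic subunit Ppp1ca, the target of DARPP-32, was at 13.10 ± 0.04. Rgs4 and Rgs9, which speed the shut-off of G proteins, were at 13.17 ± 0.02 and 12.07 ± 0.07. Pde10a, the cAMP and cGMP phosphodiesterase of spiny neurons, read 11.51, 11.52 and 10.66, so that animal 8 lay below the other 2. The receptor genes Drd3 and Drd4 were at 2.03 and 2.58 in this tissue, and Prkar2a at 2.53.

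In the calmodulin kinase and CREB pathway, 17 of 18 genes were above background and the median was 9.17. The calcineurin subunits Ppp3ca and Ppp3r1 were at 13.93 ± 0.04 and 12.98 ± 0.05. Camk2b, a subunit of CaMKII, was at 12.45 ± 0.06, and Camkk2, the kinase that activates CaMKIV, read 11.35, 11.43 and 10.89. Camk4 itself read 7.72, 7.59 and 7.64 with its brightest probe set and ranked 4641. Its other 2 probe sets were at 5.54 ± 0.15 and 2.03. Creb1 was at 3.22 ± 0.01, under the level called above background. Camk2a read 5.62, 4.84 and 5.13. Probe sets of a gene often disagreed in this way. Among 3784 genes above background with several probe sets, 1786 (47.2%) had another probe set at or below 4, so that a level near the floor is a property of the probe set as much as of the gene.

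Receptors for amino acid transmitters split in this respect. Of 13 glutamate receptor genes 5 were above background, among them the AMPA receptor subunits Gria2 at 12.22 ± 0.07 and Gria1 at 11.43 ± 0.05. The NMDA receptor subunits Grin2a and Grin2b were at 2.06 and 2.35. Of 10 genes for GABA synthesis and receptors 8 were above background, led by the synthetic enzyme Gad1 at 13.52 ± 0.05, and followed by the GABA-B receptor subunit Gabbr1 at 12.40 ± 0.04 and the vesicular transporter Slc32a1 at 11.64 ± 0.08. Of 11 opioid, cannabinoid, muscarinic and serotonin receptor genes 2 were above background, Chrm1 at 6.56 ± 0.08 and Htr2c at 5.81 ± 0.43. Cnr1 and Oprm1, the cannabinoid CB1 and mu opioid receptors, were at 2.39 and 2.47. Synaptic vesicle genes were above background in 14 of 14 cases, with a median of 11.12.

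Other cell types left unequal traces. All 14 named oligodendrocyte genes and all 16 astrocyte genes were above background, with medians of 10.56 and 10.11. After Mbp and Clu these were led by Cnp at 13.59 ± 0.16 and by the glycolytic enzyme Aldoc at 13.52 ± 0.06. Of 15 microglial genes 14 were above background, with a median of 8.25 and with the protease Ctss at 11.49 ± 0.04 brightest. Endothelial genes had a median of 6.73 (9 of 13 above background) and mural cell genes one of 6.17 (5 of 7). Of 12 genes of GABAergic interneurons 9 were above background in all animals, with a median of 6.52 over the 12. The peptide genes Sst at 11.43 ± 0.07 and Npy at 11.40 ± 0.20 were the brightest, and Pvalb, of fast-spiking interneurons, read 6.95, 6.36 and 6.80. Calb2 was at 4.68 ± 0.58, Vip at 3.10 and Cort at 1.91. The neuropeptide list as a whole had a median of 6.49, with 8 of 16 genes above background. All 3 genes of oligodendrocyte precursors were above background, with a median of 4.72. Of 4 genes of cholinergic interneurons only Lhx8, at 6.96 ± 0.27, was above background.

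**Figure D1:**
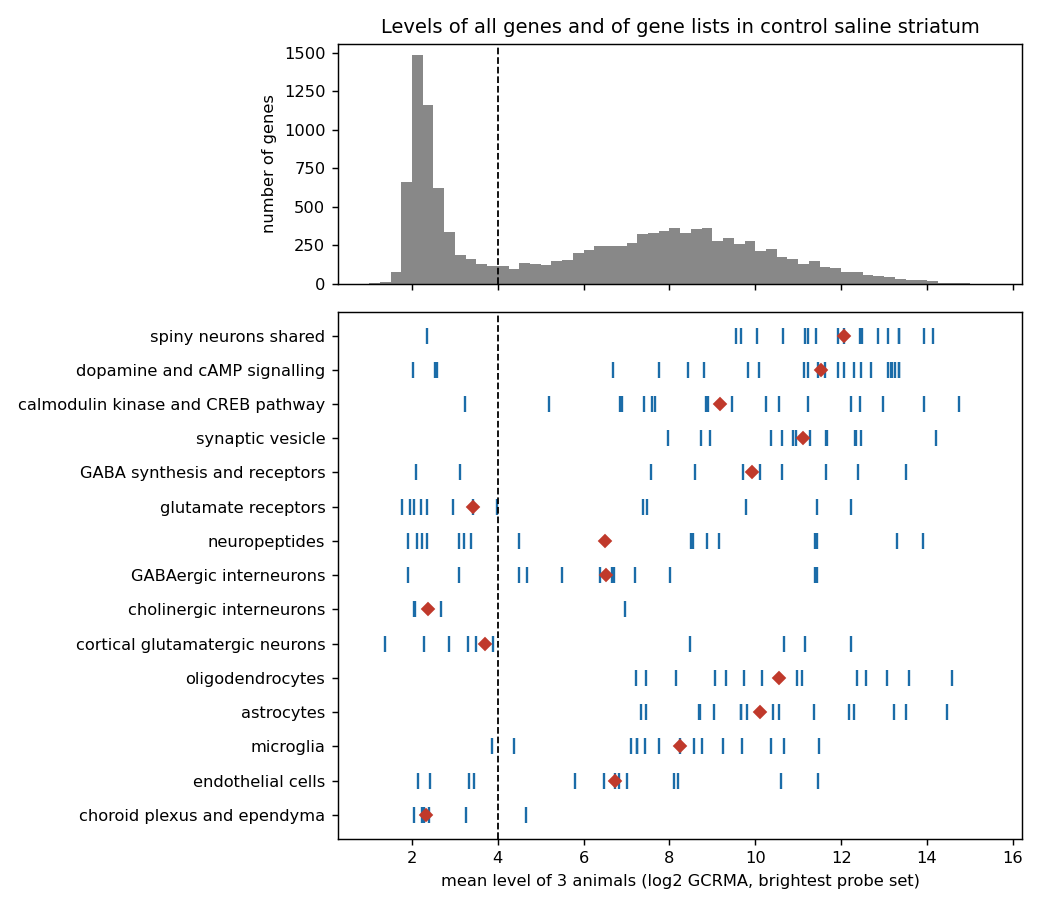
The upper panel counts genes by mean log2 level in the 3 control saline animals, and the lower panel gives each named member of 15 lists as a tick and the list's median as a red diamond; the dashed line is the level of 4. The shared spiny neuron genes had the highest median of these 15 lists (12.07, and 10.64 with the mean over probe sets), and the lists for the choroid plexus and ependyma and for cholinergic interneurons had medians under 2.4.

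Genes listed for neighbouring tissue were above background in part. Of 10 genes listed for cortical glutamatergic neurons 4 were above background in all animals, namely Nrgn, Lamp5, Mef2c and Nptx1. The list's median was 3.69. Nrgn is also in the calmodulin kinase and CREB list, and whether the signal of these 4 genes came from cortex or from striatal cells was not tested. Neurod2 was at 1.36 and Cux2 at 2.86. Tbr1, a transcription factor of deep cortical layers, read 5.11, 2.95 and 3.64, and Neurod6 read 4.31, 2.87 and 2.77, so that both passed 4 in animal 10 alone. Choroid plexus and ependymal genes had a median of 2.34, with Ttr, the transthyretin of choroid plexus, at 3.25 ± 0.86. Of 5 red blood cell genes 2 were named by a probe set, and both were under 3. The probe sets named here include none for Hbb-b1, Hbb-bt or Hbb-bs, so these are not analysed here. Genes of the thalamus and septum had a median of 4.37 (5 of 8 above background). Those of midbrain dopamine neurons had a median of 3.90 (3 of 6), and Th among them is also in the GABAergic interneuron list. Of all genes, 59.6% were above background. Slc6a3, the dopamine transporter of midbrain neurons, was at 2.23. Xist was at 2.53 ± 0.01 and the Y-linked Eif2s3y at 7.80 ± 0.16 in these mice.

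Resting levels of activity-regulated genes covered nearly the whole scale. Of 32 such genes 21 were above background, and the median over the 32 was 7.19. Egr1, a zinc finger factor induced by synaptic activity, read 12.52, 12.17 and 12.10, and the G protein regulator Rgs2 read 12.79, 12.54 and 12.73. Arc, a protein of the postsynaptic density, read 7.89, 7.52 and 7.47. Fos read 6.52, 5.00 and 6.06, while Fosb, Egr4, Nr4a3 and Egr3 were under 4 in all 3 animals. Of the stress lists, heat shock and ER stress genes had a median of 10.93 and were led by Hspa8 at 14.04 ± 0.12. The glucocorticoid list had a median of 8.63, led by the metallothionein Mt1 at 12.91 ± 0.08.

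The 3 animals resembled each other closely over most genes. Across the 12393 genes, which are not independent replicates, the Pearson correlation between 2 animals was 0.9976 to 0.9982. The median SD over genes above background was 0.0986, and 3929 of them (53.2%) had a range under 0.2. The SD was larger for dim genes, with a median of 0.152 between levels of 4 and 6 and of 0.0529 above 12. It exceeded 0.5 in 92 genes and 1 in 7. Animals 10 and 4 differed by over 1 in 27 genes, animals 10 and 8 in 21, and animals 4 and 8 in 41. For the same genes the median SD was 0.0970 in the 3 mutant animals given saline.

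**Figure D2:**
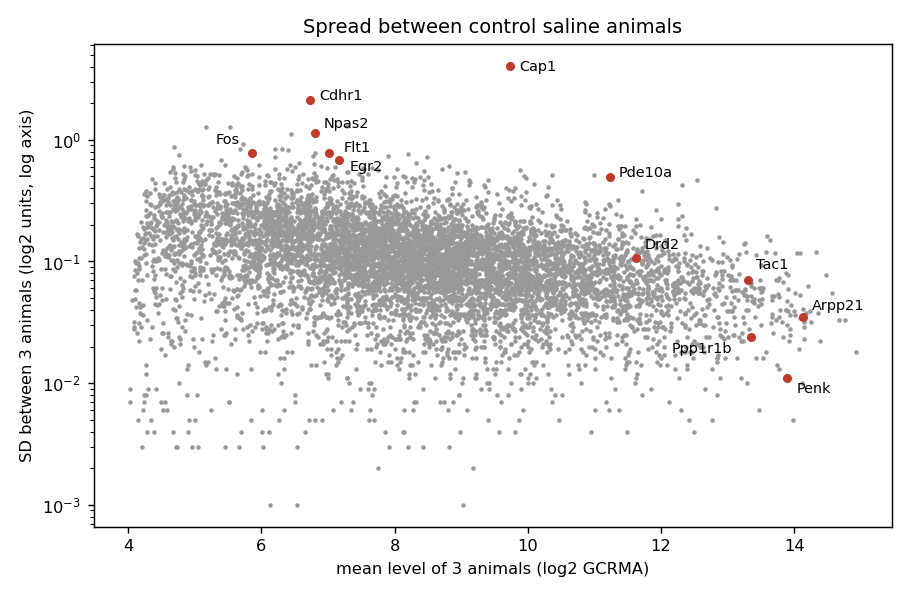
Each point is 1 gene above background, with its mean log2 level in 3 animals on the horizontal axis and the SD between them on a logarithmic vertical axis. The SD falls as the level rises, Penk varied least of the 5 striatal markers, and Cap1 and Cdhr1 stand above all other genes.

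Among the brightest 1000 genes the smallest SDs belonged to 10 genes that included Cfl1 (cofilin) at 13.98 ± 0.01, the glycolytic enzymes Pgam1 at 12.76 ± 0.01 and Pfkm at 11.49, and the cathepsin gene Ctsb at 12.42 ± 0.01. Set, Chmp4b, Cox7a2, Adgrl1, Tbcb and Mprip completed the 10. Penk, with an SD of 0.01, was nearly as even as these, whereas Drd2 had an SD of 0.11.

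The largest SD belonged to Cap1, an actin-regulating protein. It read 12.10 in animal 10 and 12.03 in animal 8, but 5.06 in animal 4. A second probe set of Cap1 behaved alike, at 11.16, 4.35 and 11.11. The next gene was Cdhr1, a photoreceptor cadherin, at 7.92, 4.27 and 7.99, and again animal 4 was the low one. In the other 15 arrays Cap1 also took values far apart within groups. It was low in 1 mutant saline animal (4.93, against 12.12 and 11.15), in 1 of 6 control cocaine animals (3.74, median 12.08) and in 1 of 6 mutant cocaine animals (7.23, median 12.00). Cdhr1 was near 8 in 1 mutant saline animal (8.12, against 4.45 and 5.13) and in 2 of 6 control cocaine animals (8.16 and 8.21), and between 4.53 and 4.82 in all 6 mutant cocaine animals. The levels of both genes thus fell into separate classes that ran across the study's groups.

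**Figure D3:**
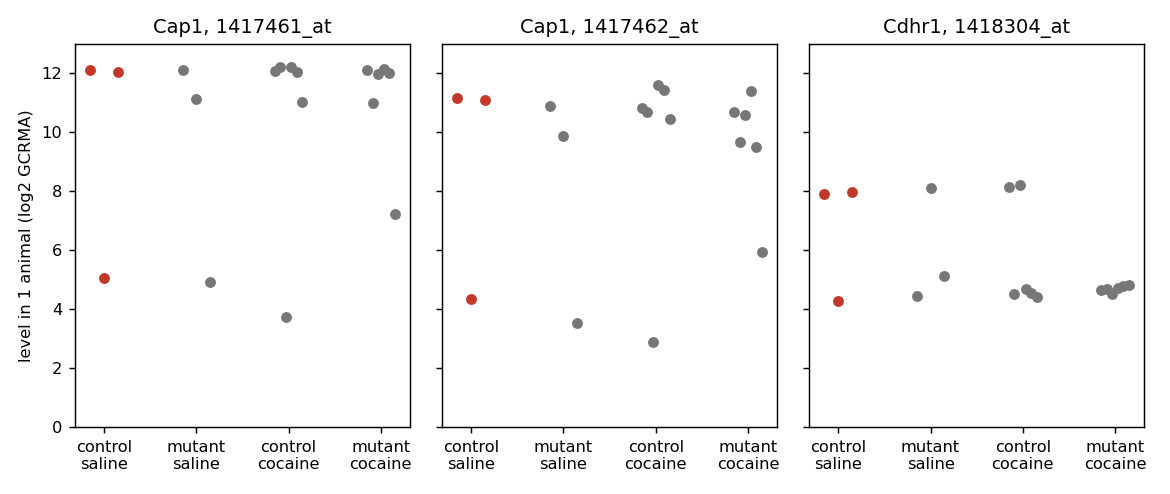
Each point is the log2 level in 1 animal, for both Cap1 probe sets and the Cdhr1 probe set, in the 4 groups, with control saline animals in red. Each group holds 1 animal with Cap1 at 7.23 or lower, and Cdhr1 lies either near 8 or between 4.27 and 5.13.

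Genes whose levels over the 18 arrays resembled Cap1 most, by the absolute Pearson correlation among genes above background, were then listed after these values had been seen. Of the 15 nearest genes, 6 lie on the chromosome that holds Cap1, against 6.21% of all genes above background, by the RefSeq annotation (GRCm38.p6). They were Ppt1, Ndufs5, Khdrbs1, Paqr7, Rab3b and Pnrc2. Khdrbs1, Paqr7, Rab3b and Pnrc2 had 110 to 221 protein-coding genes between them and Cap1. Ppt1, a lysosomal thioesterase, is the next protein-coding gene to Cap1 and read 10.17, 9.42 and 10.34, lowest in animal 4. Its second probe set did not set animal 4 apart, at 8.58, 8.56 and 8.92. All these genes were picked over arrays that include the 3 control saline arrays. Ndufs5, a subunit of complex I with 14 protein-coding genes between it and Cap1, ran the opposite way at 12.07, 12.80 and 12.06. Khdrbs1, Rab3b and Pnrc2 also ran opposite to Cap1 over the 18 arrays. Of the 15 nearest genes to Cdhr1, 8 lie on its chromosome, against 3.63% of all genes. Among them Ttc5 read 8.62, 7.76 and 8.54 and Supt16, a histone chaperone subunit, 8.76, 7.94 and 8.82, while Rpgrip1 was highest in animal 4 at 8.51, 9.53 and 8.76. Of these 8 genes Ldb3 had 9 protein-coding genes between it and Cdhr1, and the others had 90 to 172. Since the levels of Cap1 and Cdhr1 fall into classes, no correlation coefficient is given.

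Genes were then counted by animal. A gene was counted as set apart in 1 animal when that animal lay over 0.5 from the mean of the other 2 and these were within 0.25 of each other. By this rule, set after the data had been seen, 51 genes were apart in animal 10, 102 in animal 4 and 160 in animal 8. Among those apart in animal 4 was Gucy1a1, a subunit of the nitric oxide receptor guanylate cyclase, at 8.21, 7.05 and 8.42. Among those apart in animal 8 were Pde10a, Camkk2 and the complexin Cplx2 (10.69, 10.62 and 9.78), all lower there, and the glyoxalase Glo1 (10.66, 10.73 and 11.59), higher there. Both named genes Gucy1a1 and Glo1 were chosen after their values were seen. The difference between the actin control probe sets of the 3′ and 5′ ends, a measure of RNA integrity, was 1.89, 2.06 and 2.29 in animals 10, 4 and 8. Its part in these counts was not tested.

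Other genes of large SD did not all follow the same animal. Npas2, a circadian transcription factor, read 6.33, 6.00 and 8.10, Sult1a1 6.14, 5.53 and 7.68, and the secreted matrix protein Ccn2 5.50, 4.92 and 6.74, all 3 highest in animal 8. Its relative Ccn3 was lowest in animal 4 at 6.52, 4.10 and 5.98, and Tmem267 was highest there at 7.01, 8.69 and 6.16. Ttc27, Cpq, Sox11, Mtm1, Crocc and 4632415L05Rik had SDs of 0.79 to 1.27. By the rule above Cpq was set apart in animal 4, at 4.12, 5.69 and 4.24. Hspa1b, the inducible heat shock protein 70, read 7.14, 5.95 and 5.51, and Fos was the fifteenth of the named genes of largest SD. Npas2 also varied widely within the other groups. It ran from 5.884 to 9.302 in mutant saline animals, from 5.987 to 9.245 in control cocaine animals and from 5.894 to 8.975 in mutant cocaine animals.

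Small shifts were shared within some of the cell type lists. Of 14 oligodendrocyte genes 13 were highest in animal 10, while 23.6% of all genes above background were highest there. Mog, of the outer myelin surface, read 10.01, 9.60 and 9.59, and Ugt8a, which makes myelin galactolipid, 10.43, 10.15 and 9.90. Olig2 was the exception. Of 14 microglial genes above background 11 were highest in animal 4, and so were 5 of 5 mural cell genes, against 33.7% of all genes. Laptm5 of microglia read 9.24, 9.53 and 9.01, and Acta2, smooth muscle actin, 7.88, 8.19 and 7.56. The summed levels of the 14 microglial genes were 117.2, 120.3 and 117.1. Shared spiny neuron genes showed no such lean, with 3, 8 and 7 of 18 highest in animals 10, 4 and 8, against 23.6%, 33.7% and 42.6% of all genes. In the same order the counts were 7, 6 and 3 of 16 astrocyte genes and 0, 4 and 5 of 9 endothelial genes. For GABAergic interneuron genes they were 4, 3 and 2 of 9.

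Activity-regulated genes were highest in animal 10 in 15 of 21 cases, against the same 23.6%. Egr2 read 7.90, 7.02 and 6.57, Nr4a1 9.79, 9.29 and 8.99, and Jun 8.22, 7.89 and 7.52. Nr4a2, under 4 in animals 4 and 8, read 4.93, 2.94 and 2.92. Egr1, Arc and Fos, with the values above, were also highest in animal 10, whereas Btg2, Gadd45b, Sgk1, Nptx2 and Plk2 were highest in animal 8. Of the 4 genes of the cortical list above background 3 were highest in animal 10, against the same 23.6%, and Lamp5 was highest in animal 8. The summed levels of these 4 genes were 42.9, 41.9 and 42.8. This sum leaves out Tbr1 and Neurod6, which passed 4 in animal 10 alone. The part of the cortical list in the activity-regulated values was not tested. The peptide gene Cck read 9.26, 7.82 and 8.39. Heat shock and ER stress genes were lowest in animal 8 in 11 of 13 cases, against 30% of all genes, among them Hspa5 at 12.47, 12.38 and 11.92. The actin 3′ minus 5′ difference given above was likewise lowest in animal 10 and highest in animal 8, and its part in these list shifts was not tested.

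**Figure D4:**
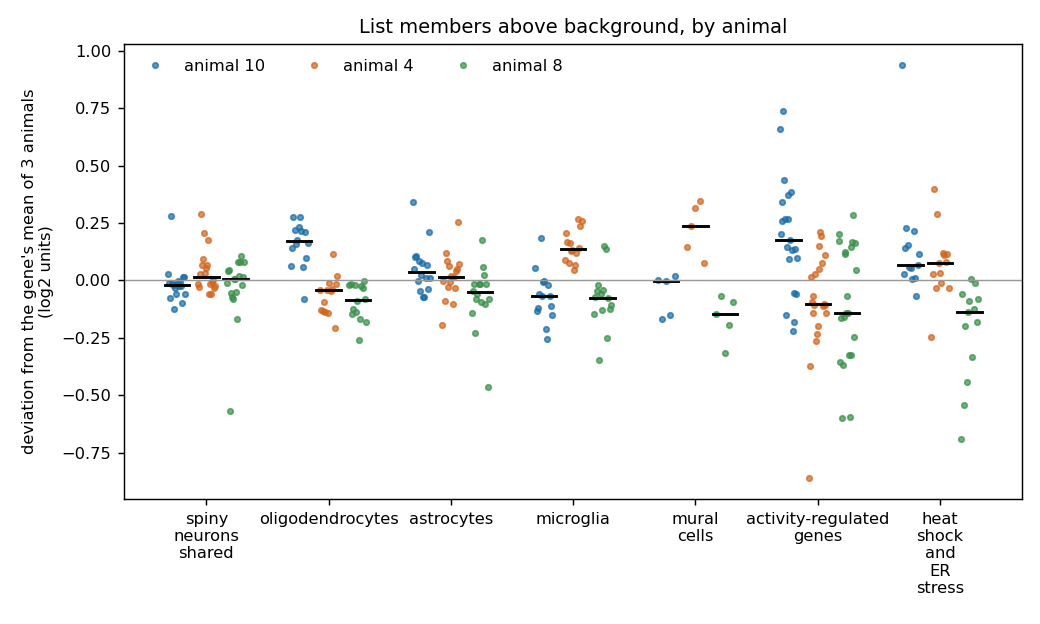
Each point is a list member above background, placed by the deviation in log2 units of 1 animal from that gene's mean over the 3 animals, and the black bars are medians. Oligodendrocyte and activity-regulated genes lie mostly above 0 in animal 10, microglial and mural cell genes in animal 4, and heat shock genes mostly below 0 in animal 8.

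Over all 18 arrays the genes whose levels correlated most with Ppp1r1b were Cd99 (r = 0.78), Wdr45b (0.74), Hsd17b12 (0.71), Camk1d (0.70) and B4galnt1 (0.70). These are descriptions over 18 arrays that share treatments and genotypes between them. The arrays also mix Arabic-numbered and Roman-numbered animals, the latter only in the cocaine groups.

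The animal numbers run in blocks of 4 that each hold 1 animal of every group, with animals 4, 8 and 10 in the first, the second and the third block. The labels do not call these blocks a batch. The 9 other Arabic-numbered arrays were tested with the group as a term. Over 12471 probe sets limma's F test called none between blocks (0%, smallest adjusted p = 0.223, Benjamini-Hochberg). Of these probe sets 1355 had an unadjusted p under 0.05, more than the 1 in 20 that chance marks on average. The fit had 4 residual degrees of freedom, and a p above the threshold does not show that the blocks were alike. An ordinary linear model called 1, Hspa14. The block differences in those arrays correlated with the differences between animals 8 and 4 at -0.08 and with those between animals 10 and 4 at 0.20 over probe sets. The 5 genes of smallest p were Cpd, Ampd2, Deptor, Rab3b and Wdfy3. Without mutant cocaine replicate 2 the test called 4 probe sets, 2 of them for Cap1, and without replicate 3 of that group it called 4, Ndufs5 and Flt1 among them. Flt1, a VEGF receptor, read 7.45, 7.48 and 6.12 in animals 10, 4 and 8. With this probe set its lowest level was 3.41 in the mutant saline group and 3.22 in the control cocaine group. Its second probe set lay closer together, at 6.860, 6.865 and 6.608.

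The control profile was set against the 3 mutant animals given saline. Camk4 was at 7.59 to 7.72 in the controls and 7.14 to 7.47 in the mutants, without overlap, a difference of -0.35 ± 0.10 (SE). In limma's moderated test over 12412 probe sets none passed (0%) and the smallest adjusted p was 0.778. An unadjusted p under 0.05 was found for 756, also more than 1 in 20. For Camk4 the adjusted p was likewise 0.778. Whether its probes lie in the mutated part is not given in the sources used here. An ordinary linear model called 1, Sox9. The spiny neuron markers differed little, with mutant minus control values of 0.07 ± 0.04 for Arpp21, 0.06 ± 0.03 for Penk, 0.01 ± 0.03 for Ppp1r1b, -0.06 ± 0.06 for Tac1 and 0.11 ± 0.07 for Drd2. Of 259 genes described or listed here that were tested none passed, and the median SE of a difference over all probe sets was 0.0967. The 5 genes of smallest p were Rcan2 (-0.62 ± 0.08), Decr2 (-0.75 ± 0.13), Pacsin1 (0.24 ± 0.04), Map2 (-0.80 ± 0.14) and H1f2 (-0.66 ± 0.12). With 3 animals a group, a p above the threshold does not show that the groups were alike.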

How the data were processed

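RNA from the striatum of 18 mice was hybridised to 1 Affymetrix array per mouse. The deposited table holds log2 values for 22690 probe sets, computed by the authors with R 2.4.1 and GCRMA per the submitters' processing notes, with settings not stated in the sources used here. GCRMA equalises the arrays, so a shift of total signal is removed, and it compresses values near the floor. Arrays have no read depth, and the number of arrays limits the precision.

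Groups were taken from the sample titles, which call the animals biological replicates. The 64 control probe sets were left out. In the platform annotation 20380 probe sets had 1 gene symbol, 691 several and 1555 none, and only the first were named. Levels were summarised in Python 3.11.15, and differences tested with limma 3.58.1 (R 4.3.3) on probe sets above 4 in at least 3 arrays, with a variance trend, two-sided, at an adjusted p of 0.05. The fits were tested on simulated data. The members and the 27 lists (296 of 367 genes named by a probe set) were chosen with earlier results of these data known. Named genes were the 20 brightest, the 5 markers, Camk4, up to 6 brightest and 3 dimmest of a list, the 15 largest and 10 smallest SDs (the latter among the brightest 1000), the 5 nearest Ppp1r1b, the 5 smallest p of a test without calls, and further list members as examples. Hspa14, Sox9, Paip1, Flt1 and Ndufs5, called under an alternative, were named after their values were seen. The alternatives were other thresholds (3, 5 and 6, or 2 of 3 arrays), the mean over probe sets, the median of the animals, no filter, other models and leaving out 1 animal at a time. Promoter windows came from RefSeq.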

Additional observations from a re-analysis of the deposited data

Results flagged for a closer look

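Cap1 had 1 array far from the rest of its group in both groups of 6, with the gap to the nearest array divided by the group's range above Dixon's 95% critical value. With the brighter probe set, mutant cocaine replicate 6 was at 7.23 against 11.00 for the nearest array, and control cocaine replicate 3 was at 3.74 against 11.02. The second probe set flagged the same arrays, at 5.95 and 2.89. In all, 10 sets of 6 values were examined, from probe sets of Camk4, Cap1 and Cdhr1, and 2 distinct arrays were found, each by both Cap1 probe sets. Chance marks about 1 in 20 sets. The control saline group has 3 animals and was not examined in this way. The gene and both groups of arrays were looked at because animal 4 was low for Cap1 in the control saline group.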

How the results depend on the processing

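The number of genes above background was 7387 and ranged from 6224 (threshold 6) to 7964 (threshold 3) over the thresholds, with 7457 when 2 of 3 arrays sufficed, 7032 with the mean over probe sets, and 7406 to 7413 without 1 control saline replicate. The median SD was 0.0584 with no filter, 0.0910 above 6, 0.0876 with the mean over probe sets and 0.0668 to 0.0862 without 1 replicate. Taking the mean over probe sets in place of the brightest moved 127 of 264 named levels and list medians beyond their spread, for example the shared spiny neuron median from 12.07 to 10.64. The median of the animals moved 2 of 264, and leaving out 1 animal moved 1 or 2. Alternatives chosen after seeing the data changed none of the 5 list counts by over 1.5 times. With levels above 6 and with the mean over probe sets the counts were 13 and 13 of 14 and 14 oligodendrocyte genes, and 13 and 14 of 18 and 19 activity-regulated genes.

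The count of block differences was 0, 1 with the ordinary linear model and 0 to 4 when 1 array was left out, 4 without mutant cocaine replicate 2 and 4 without replicate 3. The count of genotype differences after saline was 0, 1 with the ordinary linear model (Sox9) and 0 to 1 when 1 array was left out, 1 (Paip1) without mutant saline replicate 1. With the replicate number as a block it was 0. Deviations of control and mutant animals with the same replicate number correlated at 0.12, -0.09 and -0.24. Those of animals with different replicate numbers correlated at -0.24 to 0.31. No label says that the numbers pair animals, so they were not treated as pairs. With 3 animals the spread of a single gene is known poorly, and dim genes are limited by the floor.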
